A study of Mus musculus with 6 samples.

Results

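Adipocyte nuclei of gonadal visceral adipose tissue (VAT) and inguinal subcutaneous adipose tissue (SAT) of old mice were compared across all genes. The nuclei were chosen by measured values. A nucleus was kept when it held over 500 genes, over 1000 UMIs (unique molecular identifiers, each standing for 1 counted RNA molecule) and under 15% UMIs of mitochondrial genes. It was taken as an adipocyte when Adipoq, Plin1, Plin4, Lipe, Pparg and Acsl1 together had at least 5 UMIs, and Ptprc, Skap1, Pecam1, Ptprb, Epcam and Upk3b, which mark immune, endothelial, epithelial and mesothelial cells, together had at most 1. Of 16703 kept nuclei in the libraries at 24 months, 6257 were adipocytes by this rule, out of 27074 kept nuclei in the whole series. The mice were female C57BL/6J animals with no labelled treatment or genetic change, and each depot gave 2 libraries of single-nucleus RNA sequencing (snRNA-seq). The labels give their age as 24 months, and the text of the study gives a different age for its old mice. By that text both depots were taken from 2 mice per age (VAT of young mice was not analysed here), but it is not stated which libraries share a mouse, so p-values here measure the spread between these libraries only. A pair of SAT libraries from mice of 2 months entered the model as a further group to estimate that spread.

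White adipocytes store triglyceride around a single large lipid droplet, release fatty acids on adrenergic stimulation, and secrete hormones such as leptin and adiponectin. Subcutaneous and visceral depots arise from different embryonic sources, and adipocytes of each depot keep some of the transcription factors that patterned the tissue. Inguinal fat of female mice lies around the mammary gland, whereas gonadal fat is covered by mesothelium and lies against the ovary and oviduct, so that nuclei of these neighbours are recovered along with those of the fat.

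The share of adipocyte nuclei differed more between libraries of 1 depot than between depots. It was 27.3% (exact 95% interval 25.6% to 29.1%) and 49.9% (48.5% to 51.4%) in SAT, and 69.1% and 3.18% in VAT, where the lower value had an interval of 2.71% to 3.70%. These shares follow from the rule and were not tested, and the intervals cover counting error only. VAT replicate 2 therefore rested on 161 adipocyte nuclei with 450022 UMIs, against 681 nuclei with 1473126 UMIs and 2352 nuclei with 5953893 UMIs in SAT, and 3063 nuclei with 8403115 UMIs in VAT replicate 1. In VAT replicate 2, 1 UMI was worth 2.22 CPM (UMIs of a gene per 1000000 UMIs of all adipocyte nuclei of the library), and 3 UMIs, taken as the floor, 6.67 CPM. Median depth of the adipocyte nuclei was 1809 and 1968 UMIs in SAT and 2249 and 2251 UMIs in VAT, and their median mitochondrial share was 1.43% and 2.17% in SAT and 0.503% and 2.44% in VAT. Just outside the limit, 14 to 93 nuclei per library at 24 months had 4 UMIs of the adipocyte genes, and just inside it 7 to 77 nuclei had 5. The labels name the cell type as adipocytes for libraries that also hold many other nuclei, and the rule picked out those with transcripts of Adipoq, the adiponectin gene, at 445 and 1437 CPM in SAT and 523 and 809 CPM in VAT. As Adipoq is a gene of the rule, this is no check of the label. Lep, the leptin gene, which the rule did not use, was at 19 and 200 CPM in the other nuclei of SAT and 64.1 and 7.28 CPM in those of VAT, and at 460 and 643 CPM and 346 and 298 CPM in the adipocyte nuclei of SAT and VAT.

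**Figure D1:**
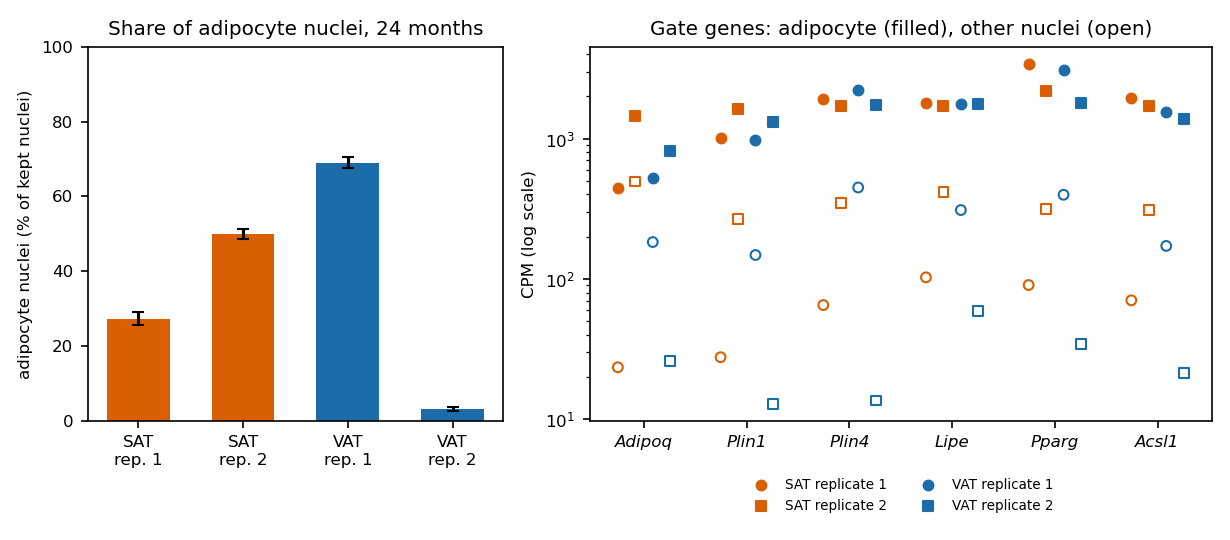
Left, bars give the share of adipocyte nuclei among kept nuclei in each library at 24 months, with exact 95% intervals for counting error. The shares of VAT lie at 69.1% and 3.18%, on both sides of those of SAT. Right, the level of the 6 genes that chose the nuclei, in CPM on a log scale, with filled symbols for adipocyte nuclei and open symbols for the other kept nuclei of the same library, which lie lower in every library.

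Across all genes, no difference between the depots passed the test in the fit of all 6 libraries. The edgeR quasi-likelihood test on summed counts called 0 of 13106 genes (0%) at an adjusted p under 0.05, with 884 genes at an unadjusted p under 0.05, of which 423 (3.23%) were higher and 461 (3.52%) lower in VAT. DESeq2 on the same counts called 20 genes higher and 18 lower. Without VAT replicate 2, edgeR called 19 higher and 15 lower, and without SAT replicate 1 it called 37 and 119. On data simulated for this comparison, with 11909 genes, the same fit recovered 4% of 2-fold, 92% of 4-fold and 100% of 8-fold differences. It made 13 false calls, and differences near 2-fold were mostly not detectable in that setting. The simulation gave every gene the same spread (dispersion 0.0617) and put differences only into genes over 20 CPM. Lhx8, with an estimate of -5.18 on the log2 scale, was not called here. These rates therefore exclude no difference between the depots. The smallest adjusted p was 0.0528, and it was shared by Lhx8, Tbx15, Grb14, Mageb18, Sdk1 and Fcgbp. In plain levels, 2044 genes (15.6%) had both VAT libraries above both SAT libraries, and 2401 (18.3%) had both below. These shares are the background for the counts of list members given further on.

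Each gene was also set against the other kept nuclei of the same library. These are all kept nuclei outside the rule. They include 49 and 458 nuclei in SAT and 96 and 9 in VAT that failed only its exclusion limit. Transcripts of Lipe were in 13% and 33.9% of the other nuclei of SAT and in 26% and 9.04% of those of VAT. How much RNA of other cells the adipocyte barcodes held was not measured. Of the 28 genes at an adjusted p under 0.1, 13 were at least as high in adipocytes as in the other nuclei in both libraries of the depot where they were higher, and of the 38 genes called by DESeq2, 15 were. Among all 13106 genes tested, 4061 were. Genes are described first where this held.

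Lhx8, Tbx15 and Shox2, of the depot identity list, were lower in both VAT libraries than in both SAT libraries. Lhx8, a LIM homeobox factor known from forebrain and tooth development, was at 28.5 and 20.2 CPM in the SAT libraries and 0.476 and 2.22 CPM in VAT, where the values stand for 4 UMIs and 1 UMI. Both VAT libraries lay below both SAT libraries (log2 fold difference -5.18, SE 0.69, adjusted p = 0.0528, and a difference of -3.42 without VAT replicate 1), and the gene passed in 11 of 17 alternative fits. Here and for the genes that follow, the fit restricted to genes whose adipocyte level reached that of the other nuclei is not counted, since its genes were taken by the depot where they were higher. Pooled over libraries, SAT had 38.6 times the CPM of VAT, with a counting interval of 16.2 to 121. Pooling weights VAT replicate 1 most, and the means of the libraries were 24.3 CPM in SAT and 1.35 CPM in VAT. Tbx15, a T-box factor of the subcutaneous lineage, was at 36.7 and 37.3 CPM in SAT and 5.24 and 4.44 CPM in VAT (log2 fold difference -2.79, SE 0.4, adjusted p = 0.0528), and it passed in 10 of 17 alternative fits. Shox2, a short stature homeobox factor, was at 3.39 and 7.89 CPM in SAT, while VAT held 2 UMIs in replicate 1 and 0 in replicate 2, which gives a SAT to VAT ratio of 31 with a counting interval of 8.16 to 263 (adjusted p = 0.169). All 3 were at lower levels in the other nuclei of the SAT libraries than in the adipocytes, Lhx8 at 2.38 and 5.79 CPM and Tbx15 at 21.4 and 26.1 CPM.

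Zfhx4 and Prdm16 are further transcription factors, which the list of depot identity factors does not hold. Zfhx4, a large zinc finger and homeobox protein, was at 211 and 182 CPM in SAT and 53.6 and 31.1 CPM in VAT (log2 fold difference -2.05, SE 0.31, adjusted p = 0.0625, and a difference of -2.69 without VAT replicate 1). Prdm16, a regulator of the thermogenic fate, was at 97.1 and 56.1 CPM in SAT and 25.6 and 15.6 CPM in VAT (log2 fold difference -1.67, SE 0.37, adjusted p = 0.203, and a difference of -2.31 without VAT replicate 1). For both, the VAT libraries lay below both SAT libraries.

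Irx2 and Wt1 were lower in adipocytes than in the other nuclei of the depot where they were higher. Irx2, an Iroquois homeobox factor, was at 7.47 and 10.1 CPM in SAT adipocytes and had 3 UMIs in VAT replicate 1 and 0 in replicate 2, but the other nuclei of the SAT libraries had 166 and 166 CPM. Wt1, a factor of the mesothelium and of visceral fat precursors, had 0 and 5 UMIs in SAT and was at 9.28 and 48.9 CPM in VAT, against 208 and 529 CPM in the other VAT nuclei. Both differences had large estimates (-4.54 and 5.24 on the log2 scale, adjusted p = 0.0992 and 0.129), and the part of RNA from other cells in them was not tested. The estimate of Wt1 was 3.9 without VAT replicate 2 and 8.91 without SAT replicate 2, and that of Irx2 -7.29 without VAT replicate 1. Gata4, of the cardiac and gonadal mesoderm, was at 3.21 and 28.9 CPM in VAT and at 4.75 and 1.85 CPM in SAT, and the libraries overlapped.

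Among the Hox genes, which mark position along the body axis, Hoxd8 was at 11.5 and 8.23 CPM in SAT and 23.7 and 26.7 CPM in VAT (log2 fold difference 1.4, adjusted p = 0.487). Hoxa7, Hoxa9 and Hoxa10 overlapped between depots, and Hoxa9 showed 1 VAT library at 67.5 CPM and the other at 11.1 CPM. Sim1, a factor of the hypothalamus and kidney, was at 5.43 and 8.06 CPM in SAT and 18.9 and 15.6 CPM in VAT (log2 fold difference 1.39, adjusted p = 0.588). Nr2f1, Foxp2 and Gata6 were also higher in both VAT libraries, by 1.15, 1.08 and 0.53 on the log2 scale, but lower in adipocytes than in the other VAT nuclei. The estimate of Nr2f1 was 0.52 without SAT replicate 2 and that of Foxp2 0.46 without VAT replicate 2. Irx3, Irx5, Nr2f2 and Nrip1 overlapped. In all, 18 of the 40 listed factors passed the filter on low counts, 6 lay higher and 4 lower in both VAT libraries, and 8 overlapped. Their median log2 fold difference was -0.0078 and ran from -0.12 without VAT replicate 1 to 0.35 without SAT replicate 2.

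**Figure D2:**
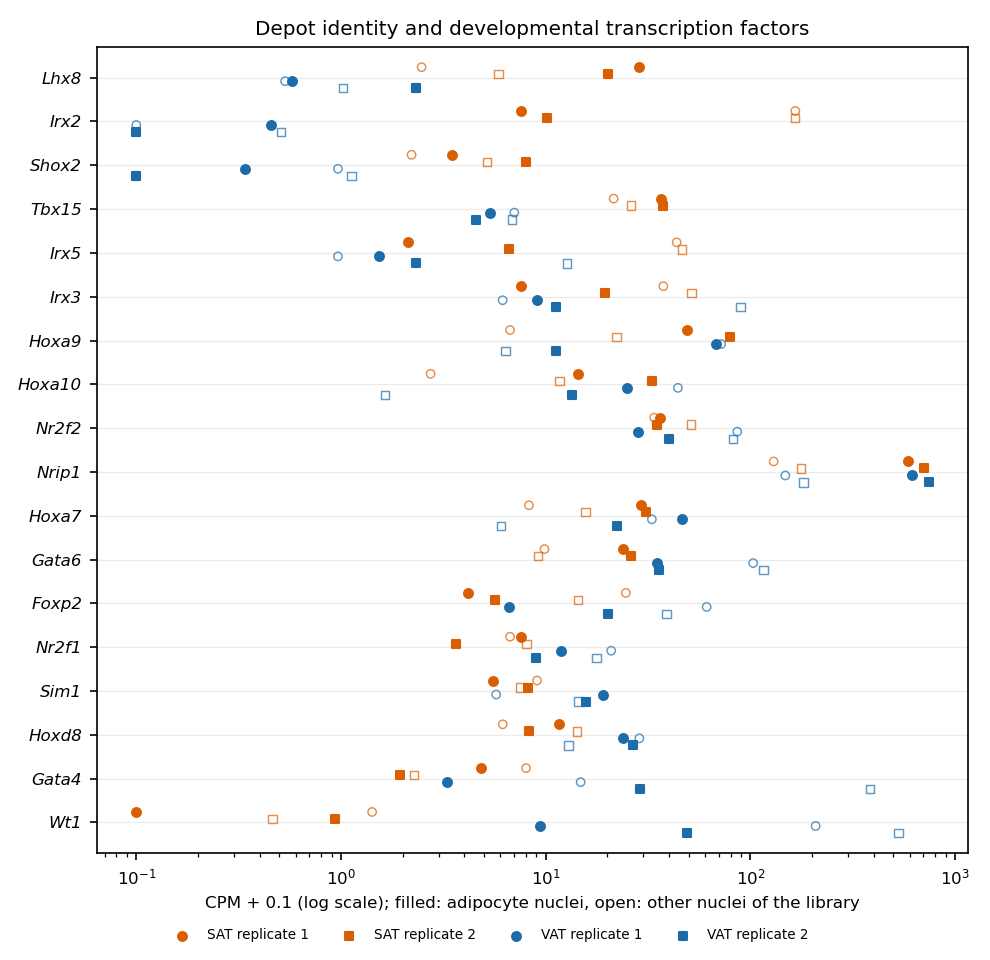
Level of the 18 measured depot identity and developmental factors in each library at 24 months, in CPM + 0.1 on a log scale, ordered by log2 fold difference. Filled symbols are adipocyte nuclei and open symbols the other kept nuclei of the same library. Lhx8, Shox2, Irx2 and Tbx15 have both VAT libraries to the left of both SAT libraries, and the open symbols of Irx2 in SAT and of Wt1 in VAT lie far to the right of the filled ones.

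Further genes led the list of those lower in VAT. Grb14, an adaptor protein that binds and inhibits the insulin receptor, was at 114 and 113 CPM in SAT and 23.1 and 33.3 CPM in VAT. The depots did not overlap, the other nuclei of all 4 libraries were at 16.4 to 29.3 CPM, and the log2 fold difference was -2.09 (SE 0.29, adjusted p = 0.0528, passed in 11 of 17 alternative fits). Sfrp5, a secreted Wnt inhibitor made by adipocytes, was at 155 and 198 CPM in SAT and 54.2 and 42.2 CPM in VAT (log2 fold difference -1.78, SE 0.29, adjusted p = 0.0709). Sfrp1, of the same family, was at 11.5 and 13.6 CPM in SAT and 2.26 and 4.44 CPM in VAT (log2 fold difference -2.22, SE 0.62, adjusted p = 0.416, and a difference of -1.53 without VAT replicate 1).

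Gabrr2, a subunit of the GABA receptor, was at 80.1 and 72.2 CPM in SAT and 19.2 and 17.8 CPM in VAT (log2 fold difference -1.97, SE 0.3, adjusted p = 0.0625). Ttpa, the vitamin E transfer protein, was at 101 and 93.9 CPM in SAT and 31.3 and 24.4 CPM in VAT (log2 fold difference -1.68, SE 0.3, adjusted p = 0.0953). Zim1, an imprinted zinc finger gene, was at 74.7 and 64.3 CPM in SAT and 23.7 and 20 CPM in VAT (log2 fold difference -1.56, SE 0.28, adjusted p = 0.0953). For these 3 genes the 2 replicates of each depot lay closer to each other than to either library of the other depot. Adam3, a member of the ADAM protease family known from sperm, was at 41.4 and 65.5 CPM in SAT and 5.36 and 8.89 CPM in VAT (log2 fold difference -3.12, SE 0.55, adjusted p = 0.0953). Ntf3, a neurotrophin, was at 35.3 and 41 CPM in SAT and 5.47 and 11.1 CPM in VAT (log2 fold difference -2.49, SE 0.48, adjusted p = 0.105, and a difference of -1.82 without VAT replicate 1). Gask1b, at 74.7 and 137 CPM in SAT and 30.6 and 40 CPM in VAT, and Trim67, at 42.8 and 40.3 CPM in SAT and 5 and 15.6 CPM in VAT, had log2 fold differences of -1.63 and -2.51 with adjusted p of 0.129 and 0.132, and Trim67 a difference of -1.45 without VAT replicate 1. In all 12 leading genes both VAT libraries lay below both SAT libraries, as the choice of the genes required.

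Mageb18 led the 12 genes higher in VAT. This X-linked gene of the MAGE family was at 42.1 and 58.5 CPM in SAT and 163 and 204 CPM in VAT (log2 fold difference 1.86, SE 0.26, adjusted p = 0.0528), and it passed in 10 of 17 alternative fits. Its span overlaps 4 annotated genes on the opposite strand, and without a stated strand setting their reads cannot be told apart. The other nuclei had 14.5 and 7.96 CPM in SAT and 30.7 and 34.9 CPM in VAT. Plppr1, a phospholipid phosphatase-related membrane protein, was at 187 and 193 CPM in SAT and 460 and 602 CPM in VAT (log2 fold difference 1.5, SE 0.28, adjusted p = 0.101). Usp35, a deubiquitinating enzyme, was at 181 and 143 CPM in SAT and 421 and 349 CPM in VAT (adjusted p = 0.209), and Trim14, an E3 ligase family member of antiviral signalling, at 54.3 and 53.9 CPM in SAT and 120 and 129 CPM in VAT (adjusted p = 0.129). In each of these 4 genes both VAT libraries exceeded both SAT libraries.

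Of the VAT libraries, replicate 1 had the higher level of Aspg, Acsm3 and Cyp2e1. Aspg, an asparaginase, was at 1.36 and 2.86 CPM in SAT and 38.4 and 4.44 CPM in VAT, the last from 2 UMIs. The 2 VAT libraries thus differed more from each other than replicate 2 did from SAT (log2 fold difference 3.6, SE 0.61, adjusted p = 0.0863). The log2 fold difference of Aspg was 0.82 without VAT replicate 1 and 4.02 without VAT replicate 2. Acsm3, a medium-chain acyl-CoA synthetase, was at 4.07 and 8.57 CPM in SAT and 30.6 and 17.8 CPM in VAT (log2 fold difference 1.99, SE 0.37, adjusted p = 0.0992, and a difference of 2.71 without SAT replicate 2 and 1.3 without VAT replicate 1). Cyp2e1, a cytochrome of ethanol and ketone metabolism that is not among the 12, was at 148 and 245 CPM in SAT and 1210 and 391 CPM in VAT (log2 fold difference 2.09, SE 0.48, adjusted p = 0.233, and a difference of 0.96 without VAT replicate 1 and 2.69 without VAT replicate 2). Alpk2, at 20.8 and 24.4 CPM in VAT, Frmd3, at 20.5 and 17.8 CPM, and the unnamed loci Gm28905, Gm5578 and 2810407A14Rik were others of the 12, with log2 fold differences of 1.71 to 2.3 and adjusted p of 0.0953 to 0.182.

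**Figure D3:**
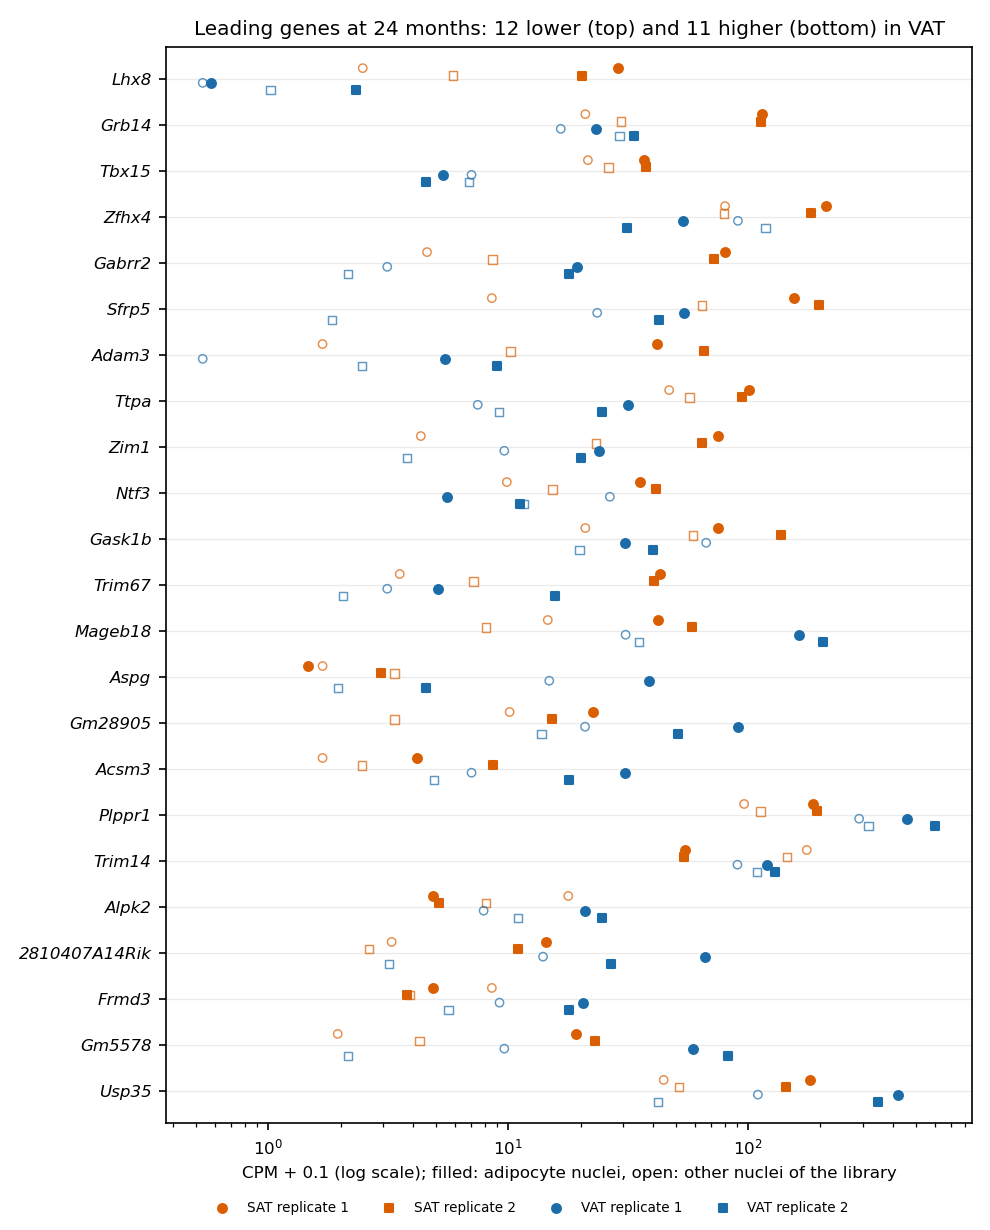
Level of 23 leading genes in each library at 24 months, in CPM + 0.1 on a log scale, the 12 lower in VAT at the top and 11 higher in VAT beneath them, each by p-value. Filled symbols are adipocyte nuclei, open symbols the other kept nuclei of the same library. Genes were taken only where the depots did not overlap and where adipocytes of the higher depot were at least as high as its other nuclei, so both properties come from the choice. Aspg has its VAT libraries at 38.4 and 4.44 CPM.

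The start-site regions of 3 genes lower in VAT and of the leading gene higher in VAT are printed to show how unlike they are in sequence. The gene bodies lie on GRCm39 at 3:154011931-154036296, 2:64742812-64855331, 19:42186410-42190691 and X:91162482-91643178 for Lhx8, Grb14, Sfrp5 and Mageb18, all on the minus strand. The windows are RefSeq promoters of the build GRCm38.p6 on the minus strand, from 250 bases before to 50 bases after the annotated start, at 3:154330511-154330810, 2:65022717-65023016, 19:42202203-42202502 and X:92599523-92599822. Capitals mark matches on either strand to the EBF core CCCNNGGG, the C/EBP motif TTGCNNAA, the nuclear receptor element AGGTCA and the GC box GGGCGG.
Lhx8: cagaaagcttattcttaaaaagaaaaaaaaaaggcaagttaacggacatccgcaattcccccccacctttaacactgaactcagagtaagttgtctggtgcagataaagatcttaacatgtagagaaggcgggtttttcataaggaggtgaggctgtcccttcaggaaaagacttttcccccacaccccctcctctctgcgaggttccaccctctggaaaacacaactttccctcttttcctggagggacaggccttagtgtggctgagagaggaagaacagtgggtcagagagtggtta
Grb14: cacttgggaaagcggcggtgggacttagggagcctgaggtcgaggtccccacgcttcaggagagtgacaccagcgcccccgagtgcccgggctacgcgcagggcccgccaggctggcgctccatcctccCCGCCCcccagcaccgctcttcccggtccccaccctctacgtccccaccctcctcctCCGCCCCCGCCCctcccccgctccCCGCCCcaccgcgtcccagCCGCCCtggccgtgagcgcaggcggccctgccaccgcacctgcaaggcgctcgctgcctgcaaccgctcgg
Sfrp5: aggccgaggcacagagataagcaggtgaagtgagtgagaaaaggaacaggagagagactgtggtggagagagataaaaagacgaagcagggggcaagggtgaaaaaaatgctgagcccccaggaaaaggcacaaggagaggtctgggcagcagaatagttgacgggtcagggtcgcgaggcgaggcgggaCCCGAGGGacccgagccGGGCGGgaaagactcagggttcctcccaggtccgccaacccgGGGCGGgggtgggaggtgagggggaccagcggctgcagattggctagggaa
Mageb18: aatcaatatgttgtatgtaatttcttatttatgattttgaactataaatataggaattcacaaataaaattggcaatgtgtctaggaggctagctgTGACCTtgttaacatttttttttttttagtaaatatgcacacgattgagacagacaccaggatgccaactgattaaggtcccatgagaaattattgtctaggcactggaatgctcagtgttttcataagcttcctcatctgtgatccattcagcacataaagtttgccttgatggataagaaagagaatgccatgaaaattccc
The Lhx8 window held no match to these 4 motifs. Grb14 had 5 GC boxes, Sfrp5 had 2 GC boxes and 1 EBF core, and Mageb18 had 1 nuclear receptor element, with no overlap between matches. Among all 32851 promoter windows of that table, 35.7% held a GC box, 16.3% a nuclear receptor element, 13.7% an EBF core and 10.8% a C/EBP motif. CG pairs numbered 4 for Lhx8, 30 for Grb14, 15 for Sfrp5 and 1 for Mageb18, against a median of 7 (quartiles 3 and 20). A match is only a string of letters in this window.

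Genes of energy metabolism were read as lists, of which no member was called by edgeR in the fit of all 6 libraries. Over all genes tested, 15.6% lay higher and 18.3% lower in both VAT libraries, with a median log2 fold difference of -0.02. In the nuclear-encoded respiratory chain, 0 of 37 members tested lay higher in both VAT libraries and 12 lower. The median log2 fold difference was -0.64, and with 1 library left out it ran from -0.97 without SAT replicate 1 to -0.065 without SAT replicate 2. All 37 estimates were below 0, against 51.6% of all genes. In 20 of the 37, both replicate 1 libraries lay below both replicate 2 libraries, against 24.6% of all genes. The same order held for the sum of mitochondrially encoded genes, at 18420 and 24230 CPM in SAT and 6814 and 30980 CPM in VAT. Immediate early and heat shock genes had it too, with sums of 621 and 1234 CPM in SAT and 865 and 1191 CPM in VAT. A link between these was not tested. Cox4i1, a subunit of cytochrome c oxidase, was at 143 and 404 CPM in SAT and 105 and 109 CPM in VAT (log2 fold difference -1.33, SE 0.39, adjusted p = 0.487, and a difference of -0.47 without SAT replicate 2). Cox6a1 was at 141 and 325 CPM in SAT and 86.9 and 113 CPM in VAT, and Ndufa4 at 46.2 and 128 CPM in SAT and 37.5 and 28.9 CPM in VAT. SAT replicate 2, without which the median came close to 0, exceeded SAT replicate 1 in all 37 genes. Of the 37 genes, 4 were at least as high in adipocytes as in the other nuclei, against 4061 of all 13106. Cox4i1 in the other nuclei had the same order, 188 and 419 CPM in SAT and 140 and 151 CPM in VAT. The part of RNA from outside these nuclei was not tested.

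In fatty acid oxidation, 1 of 19 members tested lay higher in both VAT libraries and 7 lower. The list had a median log2 fold difference of -0.44, and with 1 library left out it ran from -0.66 without SAT replicate 1 to -0.097 without SAT replicate 2. Pdk4, the kinase that shuts off pyruvate dehydrogenase in favour of fatty acids, was at 84.9 and 109 CPM in SAT and 41.3 and 48.9 CPM in VAT (log2 fold difference -1.12, SE 0.26, adjusted p = 0.25), though SAT replicate 1 had 102 CPM in its other nuclei. The acyl-CoA dehydrogenases Acadl, at 143 and 167 CPM in SAT and 115 and 77.8 CPM in VAT, and Acadm, at 172 and 239 CPM in SAT and 137 and 142 CPM in VAT, had log2 fold differences of -0.6 and -0.53 with adjusted p of 0.735 and 0.759. In the tricarboxylic acid cycle, 0 of 26 members tested lay higher in both VAT libraries and 8 lower. At the median, the log2 fold difference was -0.22, and with 1 library left out it ran from -0.48 without SAT replicate 1 to 0.015 without SAT replicate 2. Mdh1, malate dehydrogenase, was at 105 and 172 CPM in SAT and 89.4 and 93.3 CPM in VAT (adjusted p = 0.752). The other 2 genes of that list with the smallest p, Idh3a and Sdhc, had log2 fold differences of -0.7 and -0.58. Over the alternative fits these ran from -1.06 to -0.2 and from -1.4 to -0.29, and Idh3a overlapped between depots. In branched-chain amino acid catabolism, 1 of 21 members tested lay higher in both VAT libraries and 3 lower. Over its genes the median log2 fold difference was 0.03, and with 1 library left out it ran from -0.2 without VAT replicate 1 to 0.13 without VAT replicate 2. Its genes Ppm1k, Bckdk and Bcat2 had log2 fold differences of -0.5, -0.48 and 0.33. Over the alternative fits they ran from -1.33 to -0.18, from -0.66 to -0.011 and from -0.025 to 0.54.

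In de novo fatty acid synthesis, 4 of 20 members tested lay higher in both VAT libraries and 1 lower. As a median, the log2 fold difference was 0.17, and with 1 library left out it ran from -0.086 without VAT replicate 1 to 0.56 without SAT replicate 2. Acaca, the acetyl-CoA carboxylase that commits carbon to fatty acids, was at 295 and 432 CPM in SAT and 797 and 476 CPM in VAT (log2 fold difference 0.86, SE 0.33, adjusted p = 0.679). Over the alternative fits its difference ran from 0.35 to 1.2. Acly, which makes the cytosolic acetyl-CoA, was at 46.8 and 88 CPM in SAT and 147 and 82.2 CPM in VAT and overlapped, while the desaturase Fads1 was lower in both VAT libraries, at 23.1 and 32.1 CPM in SAT and 12.7 and 13.3 CPM in VAT (adjusted p = 0.603). Scd1, a further desaturase named after its values were seen, was at 492 and 4792 CPM in SAT and 791 and 833 CPM in VAT, so that SAT replicate 2 alone stood apart. In triglyceride assembly, 5 of 18 members tested lay higher in both VAT libraries and 1 lower. The median log2 fold difference was 0.08, and with 1 library left out it ran from -0.11 without VAT replicate 1 to 0.39 without SAT replicate 2. The phosphatidate phosphatase Lpin2 had the smallest p, at 13.6 and 18.5 CPM in SAT and 28.3 and 37.8 CPM in VAT (adjusted p = 0.69). Aqp7, a glycerol channel, and Agpat1, an acyltransferase, had log2 fold differences of -0.84 and 0.54, and Aqp7 one of -0.11 without SAT replicate 2. In cholesterol synthesis and efflux, 4 of 26 members tested lay higher in both VAT libraries and 4 lower. The list had a median log2 fold difference of -0.0063, and with 1 library left out it ran from -0.13 without SAT replicate 1 to 0.14 without VAT replicate 1. Mylip, a ligase that degrades the LDL receptor, was at 17.7 and 27.2 CPM in SAT and 12.9 and 6.67 CPM in VAT, against 103 and 144 CPM in the other SAT nuclei. Insig2, a brake on sterol synthesis, and Scarb1, a lipoprotein receptor, lay higher in both VAT libraries, by 0.58 and 0.74 on the log2 scale.

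Of the genes of lipolysis and lipid droplets, 0 of 14 lay higher and 2 lower in both VAT libraries, and the median log2 fold difference of -0.03 ran, with 1 library left out, from -0.25 without VAT replicate 1 to 0.19 without SAT replicate 2. Cidea, a droplet protein of thermogenic fat, was at 3.39 and 5.54 CPM in SAT and 37.7 and 2.22 CPM in VAT, so its estimate of 2.48 (adjusted p = 0.49) rested on VAT replicate 1 and was -1.11 without it. Plin5 had the same pattern, at 4.07 and 4.87 CPM in SAT and 14.9 and 2.22 CPM in VAT, and Fitm2, of droplet formation, a log2 fold difference of -0.52, which was 0.11 without SAT replicate 2. In fatty acid uptake, 2 of 18 members tested lay higher in both VAT libraries and 4 lower. At the median, the log2 fold difference was -0.19, and with 1 library left out it ran from -0.53 without SAT replicate 1 to 0.24 without SAT replicate 2. Of these, Fabp4, the fatty acid binding protein of adipocytes, was at 7546 and 12940 CPM in SAT and 6384 and 7202 CPM in VAT (log2 fold difference -0.56, adjusted p = 0.833). The difference of Fabp4 ran from -0.9 to -0.21 over the alternative fits. Lpl, lipoprotein lipase, at 1656 and 5183 CPM in SAT and 1742 and 2498 CPM in VAT, overlapped. Got2, also of that list, had a log2 fold difference of -0.72 and lay below the other nuclei. In the thermogenic list, 3 of 12 members tested lay higher in both VAT libraries and 2 lower. Over its genes the median log2 fold difference was 0.4, and with 1 library left out it ran from -0.26 without VAT replicate 1 to 0.62 without VAT replicate 2. Prdm16 lay on the SAT side and Pank1, a pantothenate kinase, on the VAT side, at 6.11 and 5.21 CPM in SAT and 18.6 and 17.8 CPM in VAT (adjusted p = 0.245). The other nuclei had Pank1 at 13.5 and 8.69 CPM in SAT and 11.3 and 84.8 CPM in VAT, and VAT replicate 2 held 8 UMIs of it in adipocytes.

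Receptors of lipolysis and insulin action pointed both ways. Adrb3, the beta-3 adrenergic receptor, was at 1116 and 1669 CPM in SAT and 2179 and 3098 CPM in VAT (log2 fold difference 0.94, SE 0.33, adjusted p = 0.603), both VAT libraries being the higher ones, and its level in the other nuclei was at most 404 CPM. Pde4d, a phosphodiesterase that degrades cAMP, was lower in both, at 1192 and 842 CPM in SAT and 650 and 442 CPM in VAT (log2 fold difference -0.86, SE 0.32, adjusted p = 0.639). Npr1, the receptor of atrial natriuretic peptide, was at 8.83 and 11.6 CPM in SAT and 28 and 46.7 CPM in VAT but at 220 and 453 CPM in the other VAT nuclei. Over this list, 3 of 21 members tested lay higher in both VAT libraries and 6 lower. As a median, the log2 fold difference was -0.27, and with 1 library left out it ran from -0.23 without VAT replicate 1 to -0.11 without SAT replicate 2. In insulin signalling, apart from Grb14, Tbc1d4, the Rab GTPase-activating protein that holds back glucose transporters, was at 250 and 219 CPM in SAT and 329 and 329 CPM in VAT (adjusted p = 0.767). Akt1 was at 12.2 and 24.9 CPM in SAT and 11.5 and 6.67 CPM in VAT, the last from 3 UMIs, and at 67.8 and 99.7 CPM in the other SAT nuclei. Over the insulin list, 2 of 23 members tested lay higher in both VAT libraries and 5 lower. The median log2 fold difference was -0.05, and with 1 library left out it ran from -0.3 without VAT replicate 1 to 0.075 without VAT replicate 2.

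Secreted factors also differed in direction. Lep, the satiety hormone leptin, was at 460 and 643 CPM in SAT and 346 and 298 CPM in VAT (log2 fold difference -0.74, SE 0.28, adjusted p = 0.648), below SAT in both libraries. Agt, angiotensinogen, was at 14.9 and 41.7 CPM in SAT and 53.7 and 209 CPM in VAT (log2 fold difference 1.99, SE 0.56, adjusted p = 0.428, and a difference of 2.88 without SAT replicate 2, 2.77 without VAT replicate 1 and 0.92 without VAT replicate 2), and the other nuclei of VAT replicate 2 were at 93.8 CPM. Bmp3, an antagonist of other bone morphogenetic proteins, was at 121 and 149 CPM in SAT and 62.2 and 53.3 CPM in VAT (log2 fold difference -1.15, SE 0.33, adjusted p = 0.446). Over the adipokine list, 2 of 18 members tested lay higher in both VAT libraries and 5 lower. The list had a median log2 fold difference of -0.29, and with 1 library left out it ran from -0.66 without VAT replicate 1 to 0.008 without SAT replicate 2. In the Wnt list, 5 of 22 members tested lay higher in both VAT libraries and 6 lower. At the median, the log2 fold difference was -0.1, and with 1 library left out it ran from -0.32 without VAT replicate 1 to 0.0082 without SAT replicate 2. Sfrp5 and Sfrp1 lay on the SAT side, and Sfrp4, with 8.83 and 7.05 CPM in SAT and 13.1 and 242 CPM in VAT, on the VAT side, where the other nuclei had 124 and 241 CPM. In the TGF-beta and BMP list, 4 of 29 members tested lay higher in both VAT libraries and 3 lower. Over its genes the median log2 fold difference was -0.0036, and with 1 library left out it ran from -0.24 without VAT replicate 1 to 0.14 without VAT replicate 2. Fst, the activin antagonist, was at 6.11 and 13.9 CPM in SAT and 2.74 and 0 CPM in VAT, against 8.44 and 41.6 CPM in the other SAT nuclei, and the activin receptor Acvr2b at 5.43 and 8.9 CPM in SAT and 10.2 and 20 CPM in VAT, also below the other nuclei of VAT.

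Among growth factors of vessels and stroma, more lay lower than higher in VAT. Among FGF, PDGF, VEGF and angiopoietin genes, 1 of 28 members tested lay higher in both VAT libraries and 9 lower. As a median, the log2 fold difference was -0.12, and with 1 library left out it ran from -0.37 without VAT replicate 1 to -0.091 without VAT replicate 2. Pdgfd, a PDGF ligand, was at 120 and 152 CPM in SAT and 35.8 and 68.9 CPM in VAT (log2 fold difference -1.51, SE 0.31, adjusted p = 0.147). Angpt1, the ligand of the endothelial receptor Tie2, was at 129 and 161 CPM in SAT and 46.5 and 28.9 CPM in VAT (log2 fold difference -1.79, SE 0.33, adjusted p = 0.0992), with 131 and 112 CPM in the other SAT nuclei. Fgf14, an intracellular FGF that binds sodium channels, was higher in VAT, at 34.6 and 47 CPM in SAT and 179 and 71.1 CPM in VAT (log2 fold difference 1.73, SE 0.39, adjusted p = 0.209, and a difference of 0.75 without VAT replicate 1), but the other nuclei of VAT replicate 1 had 269 CPM. Among matrix enzymes, Adamts2, the procollagen N-proteinase, was at 108 and 133 CPM in SAT and 53.9 and 66.7 CPM in VAT (log2 fold difference -1.01, SE 0.25, adjusted p = 0.286), and Lox, a collagen cross-linking oxidase at 17 and 60.3 CPM in SAT and 8.33 and 17.8 CPM in VAT, overlapped. Over the matrix enzyme list, 5 of 28 members tested lay higher in both VAT libraries and 7 lower. The median log2 fold difference was -0.16, and with 1 library left out it ran from -0.39 without VAT replicate 1 to 0.029 without SAT replicate 2. Among collagens and basement membrane genes, 5 of 38 members tested lay higher in both VAT libraries and 1 lower. The list had a median log2 fold difference of 0.07, and with 1 library left out it ran from -0.17 without SAT replicate 1 to 0.28 without SAT replicate 2. Col14a1, the one with the smallest p, was at 458 and 12.3 CPM in the other VAT nuclei against 22.4 and 8.89 CPM in adipocytes. Fn1 and Col1a1 overlapped, and the protease Mmp15, with 74.9 and 136 CPM in the other SAT nuclei, had 11.5 and 16 CPM in SAT adipocytes and 3.09 and 6.67 CPM in those of VAT.

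Steroid, adipogenic and adhesion genes gave single members of interest. Hsd11b1, which regenerates active glucocorticoid, was at 59.1 and 64.7 CPM in SAT and 35.1 and 22.2 CPM in VAT (log2 fold difference -0.94, SE 0.29, adjusted p = 0.514), yet the other SAT nuclei had 121 and 72.9 CPM. Pgr, the progesterone receptor, was at 2.04 and 5.38 CPM in SAT and 0.714 and 0 CPM in VAT, with 99.7 and 131 CPM in the other SAT nuclei. Over the steroid list, 2 of 16 members tested lay higher in both VAT libraries and 6 lower. At the median, the log2 fold difference was -0.02, and with 1 library left out it ran from -0.34 without VAT replicate 1 to 0.036 without VAT replicate 2. Cebpa, an adipogenic factor, overlapped, at 143 and 354 CPM in SAT and 91.5 and 169 CPM in VAT. Tle3, of the Groucho family of transcriptional co-regulators, was at 107 and 123 CPM in SAT and 146 and 187 CPM in VAT (adjusted p = 0.73), and Rxra, the partner of PPARG, had a log2 fold difference of -0.64. Over that list, 4 of 21 members tested lay higher in both VAT libraries and 3 lower. Over its genes the median log2 fold difference was -0.14, and with 1 library left out it ran from -0.38 without VAT replicate 1 to 0.11 without VAT replicate 2. Ntm, the adhesion protein neurotrimin, was at 182 and 115 CPM in SAT and 63.4 and 46.7 CPM in VAT (log2 fold difference -1.32, SE 0.31, adjusted p = 0.245), and the netrin Ntn1 at 31.9 and 37.6 CPM in SAT and 18.7 and 6.67 CPM in VAT, against 210 and 180 CPM in the other SAT nuclei. Over the axon guidance and adhesion list, 9 of 40 members tested lay higher in both VAT libraries and 2 lower. As a median, the log2 fold difference was 0.24, and with 1 library left out it ran from 0.071 without VAT replicate 2 to 0.7 without VAT replicate 1. Of its genes, 6 of 40 were at least as high in adipocytes as in other nuclei, against 4061 of all 13106. Among imprinted genes, Kcnq1ot1, a long non-coding RNA, was at 574 and 433 CPM in SAT and 786 and 889 CPM in VAT (log2 fold difference 0.75, SE 0.27, adjusted p = 0.638), and Meg3, also non-coding, at 4.07 and 7.56 CPM in SAT and 45.2 and 26.7 CPM in VAT, with 563 and 160 CPM in the other VAT nuclei. Its adjusted p of 0.0709 was the lowest of that list. Over it, 2 of 17 members tested lay higher in both VAT libraries and 4 lower. The median log2 fold difference was -0.003, and with 1 library left out it ran from -0.24 without VAT replicate 1 to 0.073 without SAT replicate 2. Among amino acid and solute transporters, 6 of 28 members tested lay higher in both VAT libraries and 5 lower. The list had a median log2 fold difference of 0.05, and with 1 library left out it ran from -0.15 without VAT replicate 1 to 0.32 without SAT replicate 1. Slc7a2, a cationic amino acid transporter, was at 23.1 and 17.6 CPM in SAT and 3.09 and 2.22 CPM in VAT (adjusted p = 0.134), with 350 and 529 CPM in the other SAT nuclei, and the bicarbonate transporter Slc4a4 overlapped.

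In the immune lists, more genes lay lower in both VAT libraries than among all genes. At least as high in adipocytes as in the other nuclei were 1 of 31 interferon and antigen presentation genes and 4 of 28 cytokine and complement genes. Among all 13106 genes tested, 4061 were. Among interferon-stimulated and antigen presentation genes, 1 of 31 members tested lay higher in both VAT libraries and 15 lower. At the median, the log2 fold difference was -0.25, and with 1 library left out it ran from -0.38 without VAT replicate 1 to -0.25 without VAT replicate 2. B2m, the light chain of MHC class I, was at 530 and 1246 CPM in SAT and 422 and 527 CPM in VAT (log2 fold difference -0.88, SE 0.37, adjusted p = 0.692, and a difference of -0.23 without SAT replicate 2), and H2-Q4 at 31.2 and 33.8 CPM in SAT and 18.3 and 17.8 CPM in VAT. The other nuclei had B2m at 1336 and 2144 CPM in SAT. Among cytokine and complement genes, 2 of 28 members tested lay higher in both VAT libraries and 11 lower. Over its genes the median log2 fold difference was -0.25, and with 1 library left out it ran from -0.24 without SAT replicate 1 to -0.18 without VAT replicate 1. Cxcl14, a chemokine, was at 6.11 and 28.4 CPM in SAT, with 10 UMIs and 0 UMIs in VAT, and C3, the central complement protein, was higher in VAT, at 27.2 and 75.9 CPM in SAT and 108 and 169 CPM in VAT. The other nuclei had Cxcl14 at 70.2 and 156 CPM in SAT and C3 at 1650 and 407 CPM in VAT. Ccl5, a further chemokine, was at 6.11 and 9.24 CPM in SAT and 1.07 and 2.22 CPM in VAT, with 143 and 83.4 CPM in the other SAT nuclei, and Oas2, an interferon-induced enzyme, was higher in VAT, at 9.5 and 12.6 CPM in SAT and 24 and 15.6 CPM in VAT, with 128 and 73.1 CPM in the other VAT nuclei. Among senescence and cell cycle arrest genes, 4 of 24 members tested lay higher in both VAT libraries and 6 lower. As a median, the log2 fold difference was -0.1, and with 1 library left out it ran from -0.22 without VAT replicate 2 to 0.053 without VAT replicate 1. Igfbp4, an insulin-like growth factor binding protein, was at 223 and 360 CPM in SAT and 139 and 160 CPM in VAT (log2 fold difference -0.95, SE 0.28, adjusted p = 0.479), and Ccnd1, cyclin D1, at 4.75 and 11.3 CPM in SAT and 0.714 and 2.22 CPM in VAT, while the other SAT nuclei had 187 and 178 CPM of Ccnd1. Igfbp6, of the same family as Igfbp4, had the smallest p of the list and was higher in VAT, at 4.07 and 10.4 CPM in SAT and 40 and 20 CPM in VAT (log2 fold difference 2.09, SE 0.48, adjusted p = 0.233, and a difference of 2.98 without SAT replicate 2 and 1.31 without VAT replicate 1), but at 710 and 101 CPM in the other VAT nuclei. The hypoxia list had 0 of 19 members higher and 4 lower, with Bnip3, a mitophagy receptor, at 310 and 287 CPM in SAT and 197 and 144 CPM in VAT, Ero1a at 31.9 and 28.1 CPM in SAT and 25 and 8.89 CPM in VAT, and Ldha overlapping. Its median log2 fold difference was -0.15 and ran from -0.34 without VAT replicate 1 to -0.14 without SAT replicate 2.

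**Figure D4:**
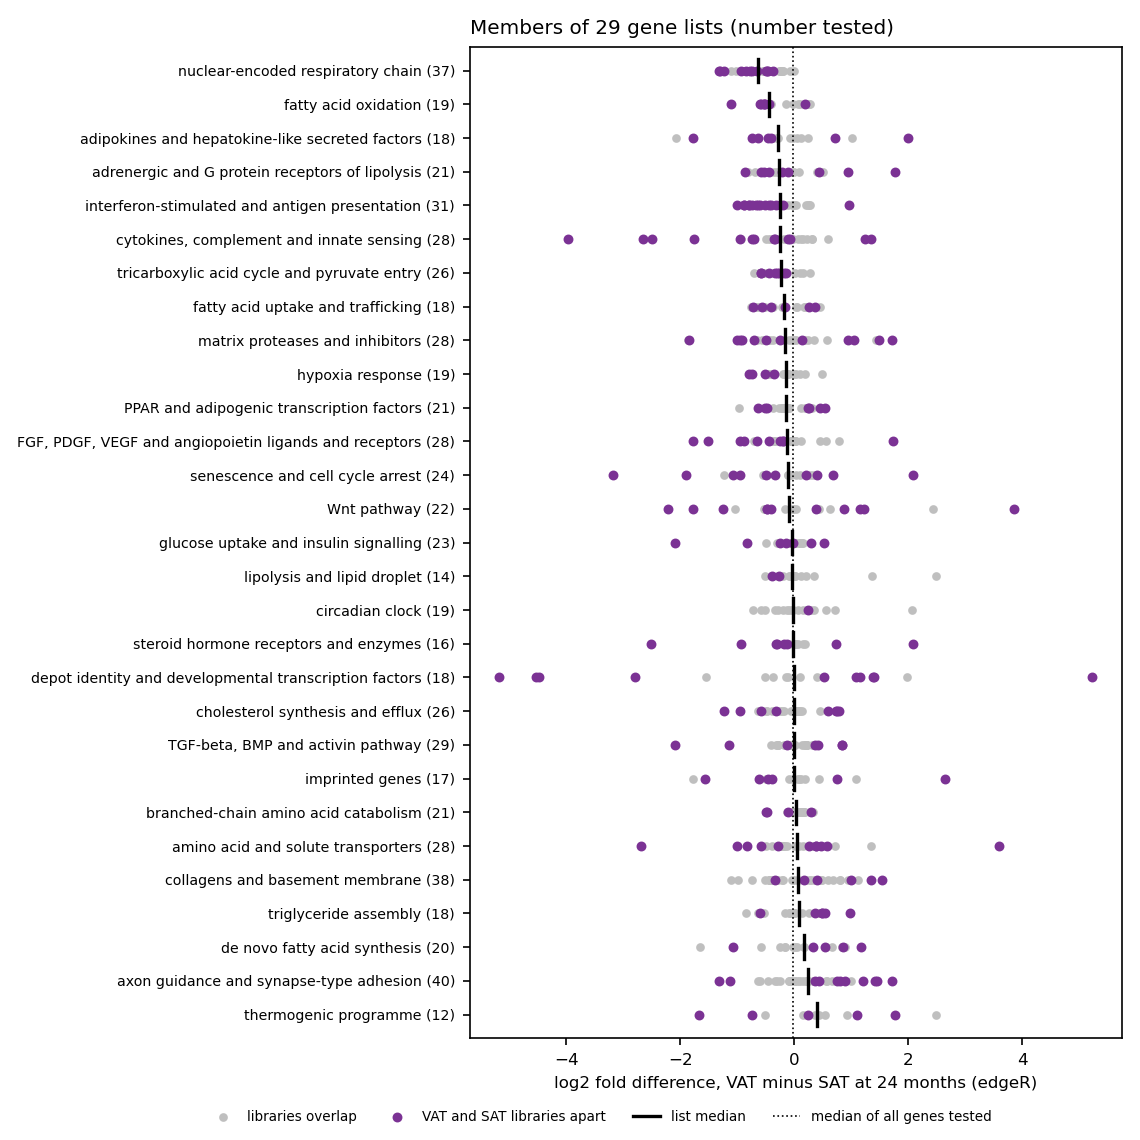
Each point is a gene of a list, at its log2 fold difference between VAT and SAT at 24 months, purple where the libraries of both depots do not overlap in CPM and grey where they do. Black bars give list medians, the dotted line the median of all 13106 genes at -0.02, and numbers in parentheses the genes tested. The respiratory chain has the lowest median, -0.64, and depot identity factors spread from -5.18 to 5.24.

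The circadian clock genes followed the replicate number rather than the depot. These genes form a transcriptional loop in which Arntl, Npas2 and Clock drive the Per, Cry, Nr1d and PAR-domain genes, whose levels cycle over the day. Between depots, 1 of 19 tested genes lay higher in both VAT libraries, 0 lay lower, and the median log2 fold difference was -0.03, running from -0.35 without VAT replicate 1 to 0.35 without VAT replicate 2. By contrast, 11 of 19 had both replicate 1 libraries above both replicate 2 libraries, against 15.7% of all genes, and 4 had them below, against 24.6%. The genes of this comparison are named after their values were seen. Dbp, a PAR-domain output factor, was at 86.2 CPM in SAT and 89.9 CPM in VAT in replicate 1, and at 5.54 and 4.44 CPM in replicate 2. Tef, a relative of it, was at 300 and 342 CPM in replicate 1 and 87.5 and 95.6 CPM in replicate 2. Bhlhe40 and Hlf, of the list's smallest p, had the same order. All 4 genes were high together in SAT and VAT of the same number.

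The driving factors had the opposite order. Arntl was at 12.9 CPM in SAT and 13.1 CPM in VAT in replicate 1, and at 103 and 93.3 CPM in replicate 2. Npas2 was at 2.04 and 5.71 CPM in replicate 1 and 61.1 and 75.6 CPM in replicate 2. The labels do not say that a number marks a shared mouse or hour of collection, and no time of day is given, so the origin of this order was not tested.

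**Figure D5:**
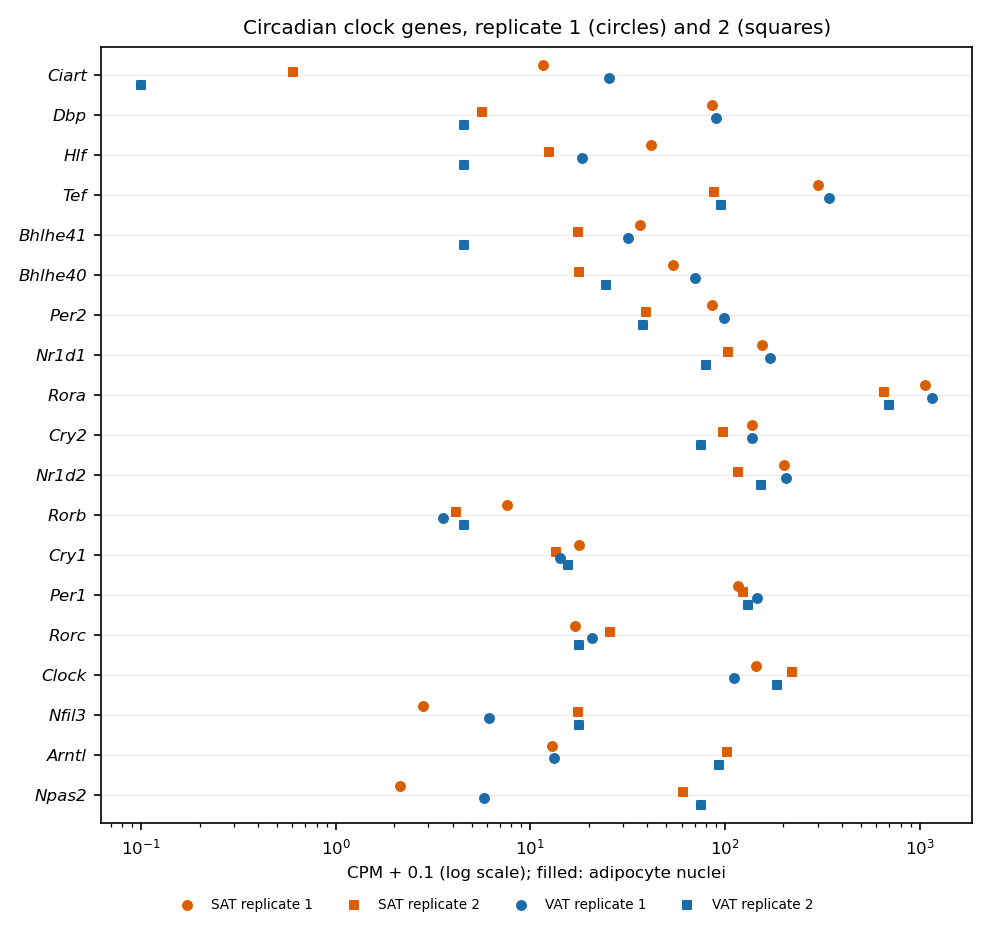
Level of 19 circadian clock genes in adipocyte nuclei of each library at 24 months, in CPM + 0.1 on a log scale, sorted by the ratio of replicate 1 to replicate 2. Circles are replicate 1 and squares replicate 2. From Ciart to Nr1d2 the circles of both depots lie to the right of the squares, and from Clock to Npas2 to the left.

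Markers of other cell types were also counted within the adipocyte nuclei. Of 16 mesothelial marker genes 10 were tested, of which 5 lay higher and 1 lower in both VAT libraries. The tested counts and the sums of this paragraph leave out genes of the rule, here Upk3b, Epcam and Skap1. Without Upk3b, the mesothelial genes summed to 51.6 and 79.8 CPM in SAT and 86.9 and 204 CPM in VAT. In the other nuclei they summed to 999 and 1059 CPM in SAT and 1435 and 2858 CPM in VAT. Keratins made up much of that in SAT, with Krt19 at 334 and 370 CPM and Krt18 at 283 and 297 CPM. Wt1 was at 1.32 and 0.362 CPM there. Of 15 mammary or other epithelial markers 9 were tested, 0 lay higher and 3 lower. Their sums were 662 and 704 CPM in SAT and 490 and 504 CPM in VAT, most of it from Trps1 at 427 to 604 CPM. Krt5 and the casein gene Csn3 were at 0 in both VAT libraries, and Csn3 was at 11.5 and 17.8 CPM in SAT. Of 13 T cell markers 12 were tested, 1 lay higher and 7 lower, with sums of 76.0 and 41.5 CPM in SAT and 14.3 and 57.8 CPM in VAT. Ovary or oviduct markers summed to 664 CPM in VAT replicate 2 and to 57.4 to 71.8 CPM in the other libraries at 24 months, where Hsd3b1 was at 0 and was at 64.4 CPM in VAT replicate 2. Macrophage markers summed to 195 and 571 CPM in SAT and 343 and 329 CPM in VAT. Fibro-adipogenic progenitor markers summed to 2465 and 6020 CPM in SAT and 2592 and 2373 CPM in VAT. Most of this was Gsn, at 1897 and 4488 CPM in SAT and 1350 and 1284 CPM in VAT. Gsn in the other nuclei was at 558 and 3205 CPM in SAT and 3910 and 146 CPM in VAT. The summed progenitor markers there were at 1487 and 6111 CPM in SAT and 15340 and 1088 CPM in VAT. The part of these sources in the differences of single genes was not tested.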

How the data were processed

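Nuclei of 6 libraries were analysed, a pair for each depot of the old mice and a pair for SAT of the young mice. The deposited values are whole-number UMI counts per gene and barcode, which the authors made with Celescope on the mouse genome build GRCm39 (version not given in the sources used here), and each library was deposited as a matrix of barcodes with at least 500 UMIs. The text of the study names a Singleron chip and the labels name 10x Genomics. Neither the strand setting nor a correction for free RNA is given in the sources used here.

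Barcodes were kept and chosen as adipocytes by the limits given above, which are those of no deposited annotation. Raw counts were summed per library over the chosen nuclei. Genes were tested with edgeR 4.0.16 in R 4.3.3 (TMM scaling, filterByExpr, quasi-likelihood test) on all 3 groups, so that 6 libraries shared 1 estimate of the spread, for VAT minus SAT at 24 months, with Benjamini-Hochberg adjustment over 13106 genes. The 12 genes of the rule were left out of the test. Standard errors are the log2 fold difference divided by the square root of F. DESeq2 1.42.0 was an alternative. Sums and shares used Python 3.11.15, pandas 2.3.3, scipy 1.17.1 and scanpy 1.11.5, whose Scrublet marked 0.0519% to 0.562% of kept nuclei as doublets, which were left in. Libraries shared at most 0.769% of the barcodes of the smaller one. The fit was tested on counts simulated from the means and the spread of these libraries.

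The members and lists were chosen with earlier results of these data known. Genes were named by 3 rules. Per direction, the 12 with the largest change among called genes were to be taken, and where fewer were called, those with the smallest unadjusted p, with separate depots, a mean of at least 10 CPM in the higher depot and adipocyte levels at least those of the other nuclei. Per list, the 3 genes with the smallest p were added, and of the depot factors all that were measured. Genes outside these rules are said to be so. A gene that the rules chose is not reported here. Gene symbols Nrg1 and Atp5o, each shared by 2 genes, were left out of the lists. Positions come from GENCODE M39, which matched 56236 of 56980 genes. The alternatives were another scaling, no filter on low counts, other limits on the nuclei, thinning to 1000 UMIs per nucleus, the 24 month libraries alone, a replicate block and leaving out each library.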

Additional observations from a re-analysis of the deposited data

How the results depend on the processing

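The count of called genes depended on the processing. Called higher and lower in VAT, respectively, were 20 and 18 genes with DESeq2, 2 and 4 with RLE scaling, 79 and 80 with no filter on low counts, 3 and 5 with at least 10 UMIs of the adipocyte genes, 14 and 20 with a mitochondrial limit of 5%, 8 and 7 after thinning to 1000 UMIs, 2 and 5 with Scrublet doublets removed, 1 and 0 with 0 exclusion UMIs, and 3 and 10 among genes at least as high in adipocytes. The last set was taken by the depot where a gene was higher, so its counts support nothing. Library size scaling, the 4 libraries alone, at least 3 UMIs of the adipocyte genes and removal of the highest 5% of doublet scores (chosen after seeing the data) gave 0 and 0. Leaving out 1 library gave 9 to 37 higher and 0 to 119 lower. The causes were not tested.

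A replicate block over the 4 libraries at 24 months called 32 higher and 31 lower. Same-numbered libraries correlated at 0.0977 in their deviations over 13106 genes, and nothing in the labels pairs them.

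The sign of the difference in adipocyte share between depots depended on which library was left out. With at least 3 UMIs of the adipocyte genes, the log2 fold differences of Irx3, Nrip1 and Nr2f2 turned to 0.0487, -0.0345 and 0.37. Without 1 library at a time, log2 fold differences that changed sign ran from -0.471 to 0.687 for Hoxa7, -0.963 to 0.318 for Irx3, -2.58 to 0.118 for Hoxa9, -0.0212 to 0.17 for Nrip1, -0.26 to 0.143 for Nr2f2, -0.906 to 0.556 for Hoxa10, -1.11 to 3.03 for Cidea, -1.05 to 1.76 for Plin5, -0.958 to 0.108 for Fitm2, -1.27 to 0.288 for Lpl, -0.598 to 1.76 for Fn1, -2.02 to 0.275 for Col1a1, -6.25 to 5.14 for Ciart, -0.512 to 1.68 for Bhlhe40, -2.52 to 0.342 for Hlf, -0.0245 to 0.539 for Bcat2 and -0.90 to 0.224 for Ldha. VAT replicate 2, with 161 nuclei, limits all levels under 6.67 CPM.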

Other observations

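The SAT libraries of mice of 2 months, which entered the model for the spread, place several depot differences beside age. Young and old SAT and old VAT are given side by side with no test, and both comparisons share the old SAT libraries. The transcription factors Lhx8, Tbx15 and Zfhx4 had like levels in SAT at both ages or were higher in young SAT. Lhx8 was at 43.2 and 24 CPM in young SAT, 28.5 and 20.2 CPM in old SAT and 0.476 and 2.22 CPM in old VAT. Tbx15 was at 75.5 and 44 CPM in young SAT, 36.7 and 37.3 CPM in old SAT and 5.24 and 4.44 CPM in old VAT. Zfhx4 was at 228 and 178 CPM in young SAT, 211 and 182 CPM in old SAT and 53.6 and 31.1 CPM in old VAT. In these 3 genes both SAT groups lay above old VAT.

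Another set of genes lower in old VAT than in old SAT was lower still in young SAT. Grb14, the insulin receptor adaptor, was at 9.22 and 6.67 CPM in young SAT, 114 and 113 CPM in old SAT and 23.1 and 33.3 CPM in old VAT. Sfrp5, the Wnt inhibitor, was at 1.15 and 0 CPM in young SAT, 155 and 198 CPM in old SAT and 54.2 and 42.2 CPM in old VAT. Gabrr2, the GABA receptor subunit, was at 8.65 and 6.67 CPM in young SAT, 80.1 and 72.2 CPM in old SAT and 19.2 and 17.8 CPM in old VAT. Old SAT was the highest of the 3 groups for each.

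Some genes higher in old VAT were higher again in young SAT. The asparaginase gene Aspg was at 190 and 164 CPM in young SAT, 1.36 and 2.86 CPM in old SAT and 38.4 and 4.44 CPM in old VAT. For Acsm3 the levels were 146 and 158 CPM in young SAT, 4.07 and 8.57 CPM in old SAT and 30.6 and 17.8 CPM in old VAT. For Cyp2e1 they were 2310 and 2569 CPM in young SAT, 148 and 245 CPM in old SAT and 1210 and 391 CPM in old VAT. Old SAT was the lowest group in all 3, and the genes of this section were picked after their values were seen.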
